A study of Rattus norvegicus with 16 samples.

Results

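The cytosolic ribosomal protein genes encode the proteins of the large (60S) and small (40S) subunits of the ribosome. They were taken by symbol: every gene named in both count tables as Rpl or Rps with a number, with or without a final a or x, together with Rplp0, Rplp1, Rplp2 and Rpsa where both tables held them. This gave 72 members out of 19709 gene names that the tables share, 44 of the large and 28 of the small subunit. Of these, 59 were tested for diet at postnatal day 21 and 71 at day 540, after a filter on low counts applied to the whole table. Rpl22, Rplp1, Rps13, Rps26 and Rps7 were named in the day 540 table alone and are not members.

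The samples are rat ventral prostates, glands that release protein-rich fluid into semen, and their messenger RNA was sequenced in the offspring of dams on either diet. Control dams (CTR) received a normal diet with 17% protein, and the other dams (GLLP) a low protein diet with 6% protein during gestation and lactation. There were 4 CTR and 3 GLLP samples at day 21, and 5 CTR and 4 GLLP samples at day 540. The labels give no strain, and they do not say which offspring shared a litter or whether glands were pooled, so p-values measure only the spread between these samples.

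A ribosome carries most of its proteins in equal number, and cells keep the messages for them at related levels. Many of these messages begin with a C followed by a run of C and T (U in the RNA), the 5′ terminal oligopyrimidine tract. Through this tract the kinase mTOR and the protein Larp1 control how strongly they are translated when nutrients and growth signals change. In secretory glands, protein output rests on this machinery. Message counts show the amount of messenger RNA, not its translation.

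The genes have one further property that bears on every count below. Retrotransposition has left many near-identical copies of them in mammalian genomes, and a read that matches a gene and its copy can be assigned to either or to neither. RefSeq's annotation of the GRCr8 assembly names 822 pseudogenes after the 72 members, with a median of 11 and a range of 1 to 34 per member. The counts of single members are therefore uncertain, and levels set between the 2 tables more so, because the tables were made with different annotations.

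Start-site sequence was read from RefSeq promoter windows (GRCr8, from 250 bases before to 50 after the annotated start). Windows were found for 57 of the 72 members, 58 windows in all. The rule of a C at the annotated start followed by 4 bases that are each C or T was met in 20 of these 58 windows (34.5%), against 2.63% of 33469 windows of all genes. The 5 windows below run from 50 bases before to 25 bases after the start, and capitals mark the unbroken run of C and T that holds the start. Rps3a and Rpl12 are shown because they passed the test at day 21, Rpl28 and Rpl10 because they were among the most and the least raised in 1 day 540 library, and Rps18 because the tables disagree on its level.
Rps3a, chr2:173827018-173827092, minus strand: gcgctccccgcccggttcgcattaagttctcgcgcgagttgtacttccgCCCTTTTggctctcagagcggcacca
Rpl12, chr3:36661890-36661964, plus strand: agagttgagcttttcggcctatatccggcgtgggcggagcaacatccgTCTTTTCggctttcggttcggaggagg
Rpl28, chr1:78083508-78083582, minus strand: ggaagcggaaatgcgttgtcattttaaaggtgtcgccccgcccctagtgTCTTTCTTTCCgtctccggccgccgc
Rpl10, chrX:157205800-157205874, plus strand: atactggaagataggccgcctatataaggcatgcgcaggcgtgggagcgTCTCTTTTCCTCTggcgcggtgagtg
Rps18, chr20:4933695-4933769, plus strand: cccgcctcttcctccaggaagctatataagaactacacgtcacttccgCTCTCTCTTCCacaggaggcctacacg

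The pyrimidine run at the start is 7 bases long in Rps3a and Rpl12, 11 in Rpl28 and Rps18 and 13 in Rpl10. The Rpl12 run spans the annotated start but does not meet the rule, which asks for a C on the annotated base itself. Searched on both strands of the whole windows, ACTTCCG was present in 31% of member windows and 6.32% of all windows. CTTTCC was present in 51.7% of member windows and 26.4% of all windows, and CTTTCC can lie inside the tract itself, as it does in Rpl28. These are matches of letters and were not tested as binding sites. At day 21 the 15 tested members that met the rule at the start had a median log2 fold change of 0.47, and the 32 tested members with a window that did not had 0.49.

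Library totals lay between 28748604 and 39161666 counts. All values below are CPM, the counts scaled to a common library size corrected by TMM factors, unless said otherwise. They are not divided by gene length, so levels are compared between libraries for 1 gene and not between genes. The tissue label was checked against secretory markers of the gland: the prostatein gene Scgb1d2 lay between 15311 and 33681 CPM at day 21 and between 8817 and 55917 CPM at day 540. Among the day 540 libraries CTR replicate 5 stood apart, with 34.3% of all tested genes above and 36.4% below every other library, and day 540 results are given with and without it.

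At day 21 the tested ribosomal protein genes had positive differences of modest size in the GLLP glands, and 2 of them were called higher. Their summed share of the library was 1.97% to 2.10% in the 4 CTR libraries, and 2.54%, 3.25% and 3.56% in GLLP replicates 2, 3 and 4. All 59 tested members had a positive log2 fold change, where 49.5% of all tested genes did. The median was 0.48 (0.44 over 34 large subunit genes and 0.51 over 25 small subunit genes), against -0.0038 over all genes. Rps3a and Rpl12 passed the threshold of 0.05 on the adjusted p of edgeR's quasi-likelihood test, 2 of 59 members where 1.01% of all genes were called higher. The unadjusted p was under 0.05 with a positive sign for 55 members, where 10.9% of all genes met that. In 51 members every GLLP library lay above every CTR library, and 9.49% of all genes had that pattern.

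**Figure D1:**
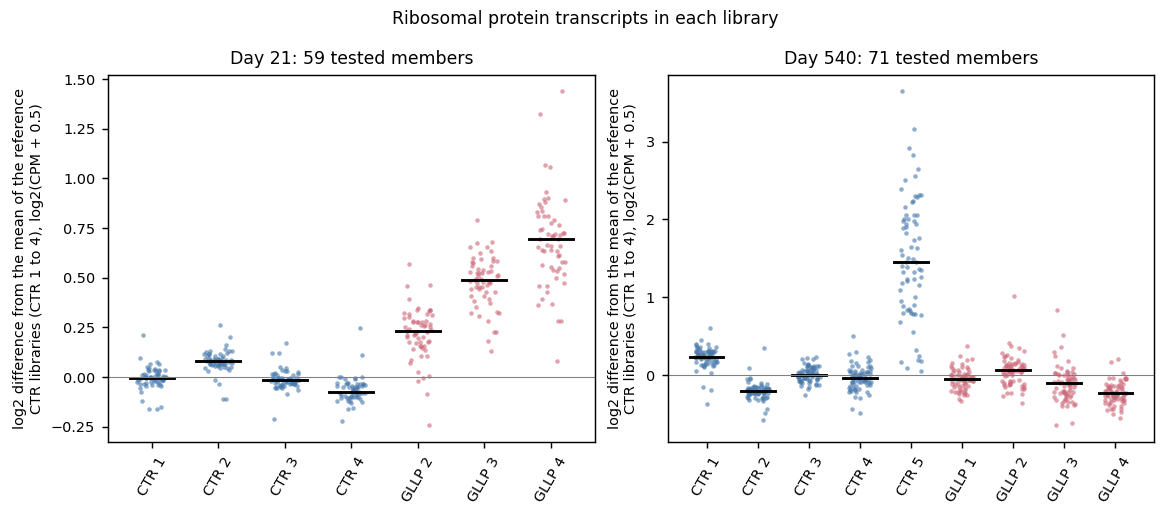
Each point is 1 tested member in 1 library, as the log2 difference from its mean over CTR replicates 1 to 4 of the same day (log2 of CPM + 0.5), and black lines are medians. At day 21 the medians are 0.23, 0.49 and 0.69 in GLLP replicates 2, 3 and 4 and lie between -0.07 and 0.08 in CTR; at day 540 the median is 1.46 in CTR replicate 5 and between -0.23 and 0.24 elsewhere.

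The size of the difference was uneven among the GLLP libraries. In GLLP replicate 2 the median member lay 0.23 above the CTR mean on the log2 scale, in replicate 3 0.49 and in replicate 4 0.69. GLLP replicate 4 was the highest of the 7 libraries for 50 of the 59 members, and GLLP replicate 2 the lowest of the 3 GLLP libraries for 55. The 8 members whose groups overlapped did so through GLLP replicate 2, since replicates 3 and 4 lay above the CTR range for every tested member. The CTR medians lay between -0.07 and 0.08. Within a library, the interquartile range of the member values was 0.04 to 0.06 on the log2 scale in CTR. It was 0.13, 0.14 and 0.26 in GLLP replicates 2, 3 and 4. The values are differences from the mean of these same CTR libraries, which in itself makes the CTR spread smaller.

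Rps3a, a small subunit protein at the messenger RNA exit, was called higher. Its level was 362, 391, 372 and 371 CPM in CTR replicates 1 to 4 and 476, 546 and 580 CPM in GLLP replicates 2 to 4. The groups did not overlap: the means were 374 ± 12.3 CPM (SD, n = 4) and 534 ± 53.3 CPM (SD, n = 3), a log2 fold change of 0.51 (SE 0.10, edgeR adjusted p = 0.0437). Without any 1 of the CTR libraries, or without GLLP replicate 3 or 4, the adjusted p in edgeR was 0.0683 to 0.194, and without GLLP replicate 2 it was 0.00976.

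Rpl12, which sits at the base of the stalk where elongation factors dock on the large subunit, was the other member called. It stood at 286, 295, 321 and 377 CPM in CTR against 438, 510 and 559 CPM in GLLP, again with no overlap. The log2 fold change was 0.65 (SE 0.13, edgeR adjusted p = 0.04996, just inside the threshold). With any 1 CTR library or GLLP replicate 3 or 4 left out, its edgeR adjusted p was 0.0546 to 0.21, and 0.013 without GLLP replicate 2.

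None of the other tested stalk and large subunit genes passed the threshold. Rplp0, the scaffold of the stalk, was at 1145 to 1250 CPM in CTR against 1450, 1675 and 2031 CPM in GLLP (log2 fold change 0.52, edgeR adjusted p = 0.092). Rpl3, a protein at the peptidyl transferase centre, was at 777 to 861 CPM in CTR against 1031, 1216 and 1324 CPM in GLLP (edgeR adjusted p = 0.0664). Both showed separate groups, with GLLP replicate 4 highest.

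Rpl5, which travels with the 5S ribosomal RNA into the subunit, was at 658 to 726 CPM in CTR against 877, 1041 and 1015 CPM in GLLP (0.49, SE 0.10, edgeR adjusted p = 0.0649). Rpl32 was at 181 to 195 CPM in CTR against 233, 281 and 344 CPM in GLLP (0.61, SE 0.12, edgeR adjusted p = 0.0583). Rpl7 had a log2 fold change of 0.53 (SE 0.10, edgeR adjusted p = 0.0562). These were the next smallest p-values among the large subunit genes after Rpl12, and none of their groups overlapped.

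Rpl4, a protein that lines the exit tunnel of the growing chain, was at 772 to 839 CPM in CTR against 1053, 1124 and 1031 CPM in GLLP. Rpl10, added to the large subunit late in its assembly, was at 788 to 892 CPM in CTR against 1055, 1107 and 1014 CPM in GLLP. In both genes GLLP replicate 4 was the lowest of the 3 GLLP libraries, unlike in most members. The weakest differences among the tested large subunit genes were those of Rpl7a (0.13, SE 0.29, at about 1 CPM) and Rpl31 (0.21, SE 0.08).

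In the small subunit, Rps20 had the smallest p after Rps3a, at 119 to 129 CPM in CTR and 152, 171 and 200 CPM in GLLP (0.49, SE 0.10, edgeR adjusted p = 0.0607). Rpsa, which is also known as the laminin receptor precursor, was at 747 to 801 CPM in CTR against 973, 1156 and 1383 CPM in GLLP (0.60, SE 0.13, edgeR adjusted p = 0.0681). Rps10 was least different, at 87.3 to 117 CPM in CTR and 95.1, 118 and 143 CPM in GLLP (0.22, SE 0.15). Its GLLP replicate 2 lay inside the CTR range, whereas those of Rps20 and Rpsa lay above it.

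In some small subunit genes, such as Rps28, Rps21 and Rps9, GLLP replicate 4 was far above the other GLLP libraries. Rps28 was at 80.7 to 101 CPM in CTR against 86.7, 139 and 221 CPM in GLLP, so that replicate 4 was 2.5 times the CTR mean and replicate 2 lay within the CTR range. Rps21 was at 137 to 159 CPM in CTR against 146, 171 and 307 CPM in GLLP. Rps9 lay 0.57, 0.56 and 1.44 above the CTR mean on the log2 scale in GLLP replicates 2, 3 and 4. These genes were picked out after their values were seen. The median ratio of GLLP replicate 4 to the CTR mean over the 59 tested members was 1.62.

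**Figure D2:**
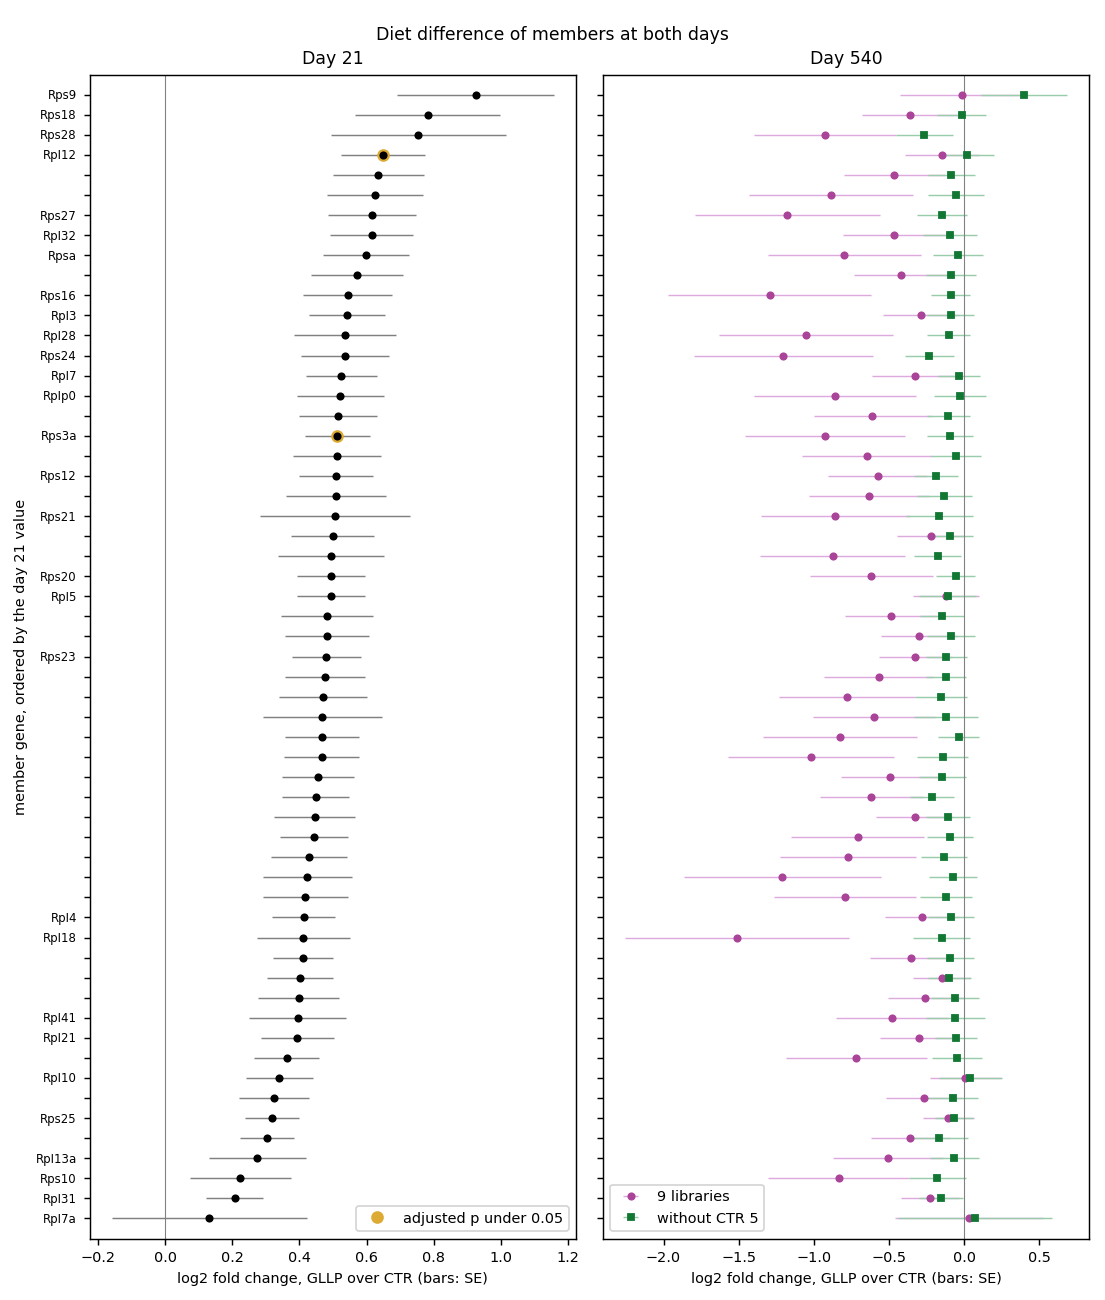
Log2 fold changes of GLLP over CTR with their SE for 57 of the 59 members tested at both days, ordered by the day 21 value, with the 29 members named in the text labelled; gold marks Rps3a and Rpl12, which had an adjusted p under 0.05 at day 21. All 57 points lie right of 0 at day 21, while at day 540 most lie left of 0 with all 9 libraries and near 0 without CTR replicate 5.

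The number of members called at day 21 depended on the libraries and the tool. Leaving out GLLP replicate 2, the library nearest to CTR, raised the count to 52 of 60 tested (9.96% of all genes were then called), and leaving out any other library gave 0. DESeq2 called 45 of 59 members higher (6.52% of all genes were called) and scaling by library size alone called 46 (4.36% of all genes), which also shifted the median of all genes by 0.14. The median log2 fold change of the members was 0.37 without GLLP replicate 4 and 0.59 without GLLP replicate 2.

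Markers of other tissues moved with the same groups. All 12 tested skeletal muscle markers were called higher in GLLP at day 21, and their summed level was 352 to 437 CPM in CTR and 1011 to 1213 CPM in GLLP, with no marker at 0 in all samples of a group and 1 of the 12 at 0 in CTR replicates 2 and 4. The muscle sum was highest in GLLP replicate 2 (1213 CPM), where the ribosomal protein genes were nearest to CTR. Basal epithelial markers summed to 326 to 786 CPM in CTR and 549, 774 and 1271 CPM in GLLP replicates 2, 3 and 4. This is the order of replicates of the median ribosomal protein gene, and it was not particular to basal markers. Stroma markers had it in their sums (8447, 9825 and 10168 CPM) but not in their medians. Lymphocyte markers (0.20, 0.31 and 0.42 on the log2 scale) and secretory markers (-0.05, 0.06 and 0.21) had it in their medians but not in their sums. Adipocyte markers had it in neither. All 7 tested basal markers had positive values, with a median log2 fold change of 0.74, 5 had an unadjusted p under 0.05 and 0 were called. Secretory markers summed to 39373 to 48866 CPM in CTR and 24890 to 33510 CPM in GLLP, a sum made mostly of Scgb1d2 and Scgb2a1. Over the 12 tested secretory markers the median log2 fold change was 0.07, with 7 positive and 0 called. No basal or secretory marker was at 0 in all samples of a group. The part of these cell types in the ribosomal protein differences was not tested, and in whole tissue a change in the number of cells of a type and a change in RNA per cell cannot be told apart.

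Genes of the same machinery outside the rule were read from lists. The first list held elongation factors, initiation factors and other messages taken as having the 5′ tract, which was not read from their sequences here. Of its 22 tested genes, 20 had positive values at day 21 with a median of 0.26, and 0 were called. Npm1, a nucleolar chaperone of ribosome assembly, was at 141 to 151 CPM in CTR and 187, 220 and 181 CPM in GLLP (0.43, SE 0.09, edgeR adjusted p = 0.0649). Eef1a1, which delivers aminoacyl-tRNA to the ribosome, was at 2642 to 3055 CPM in CTR and 3725, 3892 and 4282 CPM in GLLP (0.48, edgeR adjusted p = 0.088), and Eif4b, an initiation factor, had 0.34 (SE 0.08). All 3 had separate groups.

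The factors that build ribosomes lay close to the median of all genes. Among 55 tested genes of ribosome assembly and RNA polymerase I the median was 0.05, with 35 positive values and 0 called, of which Nob1, an endonuclease that finishes the 18S ribosomal RNA, had 0.31 (SE 0.10). Rrn3, an initiation factor of RNA polymerase I, had -0.41 (SE 0.13). The 72 tested mitochondrial ribosomal protein genes had a median of 0.04, with 0 called. Neither list had the one-sided signs of the cytosolic genes at this day.

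Genes that control growth and the translation of these messages had a median of -0.05 over 24 tested, with 17 negative and 0 called. Rps6kb1, the S6 kinase downstream of mTOR, was at 93.2 to 115 CPM in CTR against 75.7, 74.8 and 62.8 CPM in GLLP (-0.48, SE 0.11, edgeR adjusted p = 0.0783). Rraga, a GTPase that carries the amino acid signal to mTOR, had -0.42 (SE 0.11, edgeR adjusted p = 0.0936), and Larp4b -0.55 (SE 0.23). Rps6kb1 and Rraga were lower in each GLLP library than in each CTR library, and Larp4b overlapped through GLLP replicate 2.

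**Figure D3:**
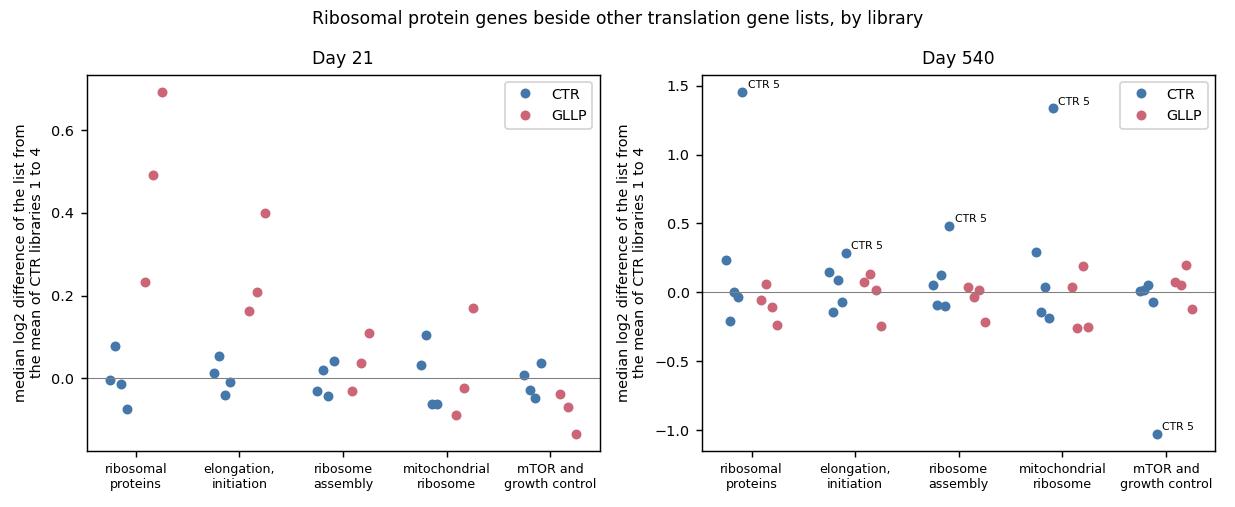
Median log2 difference of each gene list in each library from the mean of CTR replicates 1 to 4 of the same day. At day 21 the ribosomal protein and elongation lists lie above 0 in all 3 GLLP libraries; at day 540 CTR replicate 5 lies at 1.46 for cytosolic and 1.34 for mitochondrial ribosomal proteins and at -1.02 for the mTOR and growth control list.

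Paralogs and fusion genes of the same ribosomal proteins had a median of 0.29 over 10 tested genes at day 21, with 6 positive and 0 called. Rack1, a scaffold protein on the small subunit, was at 579 to 654 CPM in CTR against 722, 901 and 1171 CPM in GLLP (0.59, SE 0.15, edgeR adjusted p = 0.103). Rpl3l, the muscle form of Rpl3, was at 0.361 to 1.21 CPM in CTR against 3.99, 2.12 and 2.85 CPM in GLLP (1.88, SE 0.37, edgeR adjusted p = 0.0562). Replicate 2 was its highest and replicate 3 its lowest GLLP library, the same order as in the summed skeletal muscle markers. In Rpl36al the groups overlapped (-0.09, SE 0.13).

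A set of 14 members was near 0 at day 21, with a mean under 1 CPM over the 7 libraries, and these are kept apart. Rpl10a, Rpl23a, Rpl38 and Rps6 had 0 counts in every day 21 library, which allows up to 0.0766 to 0.0983 CPM in a single library (3 counts over the total of each of the 7 day 21 libraries; counting error only). Rpl8, Rpl9, Rpl37, Rpl39, Rplp2, Rps19 and Rps29 had a count in at least 1 day 21 library and none above 0.432 CPM. Rpl35a and Rpl36a had up to 0.42 and 0.317 CPM. Rpl7a, at 0.708 to 1.24 CPM, was the 1 gene of this set that was tested at day 21, and the other 13 were not.

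Most of these genes were plentiful in the day 540 table. Rps29 was at 379 to 597 CPM there in the 8 libraries other than CTR replicate 5, Rpl23a at 432 to 562 CPM, Rpl10a at 285 to 413 CPM and Rpl37 at 241 to 391 CPM. Rpl39, a small protein of the exit tunnel, was at 83.5 to 113 CPM, and Rps19, a protein of small subunit maturation, at 121 to 181 CPM. Rps6, the substrate of the S6 kinases, was at 4.92 to 11.8 CPM, Rplp2 of the stalk at 3.38 to 10.5 CPM and Rpl8 at 0.624 to 1.46 CPM, all low for genes that every ribosome needs. Rpl35a and Rpl7a had means under 1 CPM at both days.

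Rps18 was recorded at very different levels in the tables. Under this symbol the day 21 libraries had 1.07 to 1.41 CPM in CTR and 1.93, 2.54 and 2.05 CPM in GLLP, while the day 540 libraries other than CTR replicate 5 had 571 to 815 CPM. The day 21 table also holds an entry named Rps18l1, absent from the day 540 table, at 284 to 300 CPM in CTR against 333, 451 and 536 CPM in GLLP. Its log2 fold change of 0.60 (SE 0.14, edgeR adjusted p = 0.0861) was close to the member median, and its groups did not overlap. The sum of both entries ran from 285 to 302 CPM in CTR and from 335 to 538 CPM in GLLP.

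**Figure D4:**
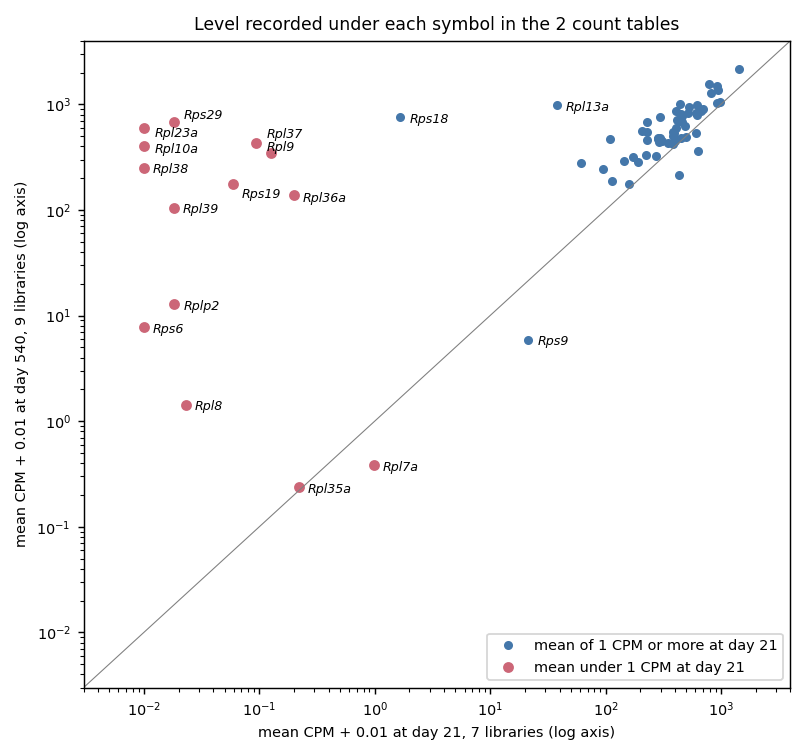
Mean CPM of each of the 72 members at day 21 (7 libraries) against day 540 (9 libraries), both on log axes with 0.01 added; the line marks equal values. The 14 members under 1 CPM at day 21 are in red, 12 of them at 1 CPM or more at day 540, and Rps18 and Rpl13a lie far above it while Rps9 lies below.

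For the 58 members at 1 CPM or more at both days, levels in CTR were set side by side as a description, since annotation and counting differ between the tables. Every day 540 CTR library lay above every day 21 CTR library for 41 members, below for 1, and the libraries overlapped for 16. Of all 11276 gene names at that level in both tables, 14.3% lay above and 20.9% below in this way. The ratio of the median over all day 540 libraries to that over all day 21 libraries was 24.3 for Rpl13a and 4.53 for Rpl31. It was 0.479 for Rps12, 0.552 for Rpl21 and 0.276 for Rps9, which were picked out after their values were seen. Rps9 was at 13.1 to 42.4 CPM at day 21 and at 3.22 to 11.9 CPM at day 540. No test of day was made.

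At day 540 no member was called different between the diets. Of 71 tested members 0 were called by edgeR, as in 0% of all 14767 tested genes. None had an unadjusted p under 0.05, which 0.833% of all genes had, and DESeq2 called 0. With all 9 libraries 69 of the 71 log2 fold changes were negative (50% of all genes were), with a median of -0.53. That median rests on CTR replicate 5: without it the median was -0.10, with 65 negative and 6 positive values (47.1% of all genes were negative) and 0 called. In CTR replicate 5 the members took 8.19% of the counts, whereas CTR replicates 1 to 4 gave 3.03% to 4.12% and the GLLP glands 2.77% to 3.99%. Without CTR replicate 5 the CTR and GLLP libraries overlapped for all 71 members (0.253% of all genes had every GLLP library above and 0.362% below CTR), and for 61 the log2 fold change was smaller than its SE.

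CTR replicate 5 lay above each of the other 8 libraries for 66 of the 71 members, against 34.3% of all tested genes. Its level was 2.92 times the median of the others for the median member, at least 2 times for 51 members and at least 4 times for 25. The shares of all tested genes at these ratios were not computed. The median ratio was 2.55 in the large and 3.40 in the small subunit. The increase was far from even across the members, most of which the ribosome holds in equal number.

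Rplp2 of the stalk had the greatest ratio, at 67.9 CPM in CTR replicate 5 against 3.38 to 10.5 CPM in all others, followed by Rpl18 at 4532 CPM in CTR replicate 5, whereas CTR replicates 1 to 4 had 404 to 645 CPM and GLLP had 530, 431, 520 and 369 CPM. This was 9.28 times the median of the others, and the diet difference was -1.51 (SE 0.75, edgeR adjusted p = 0.914) with CTR replicate 5 and -0.15 (SE 0.19) without. Rps16 was at 3591 CPM in CTR replicate 5 and 400 to 516 CPM in all others, and its diet difference went from -1.29 to -0.09. Rpl28 was 5.92 times the median of the others in that library, at 1702 CPM. Rps24 went from -1.21 to -0.23 and Rps27 from -1.18 to -0.15 on leaving out that library.

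Rps28 was at 591 CPM in CTR replicate 5 and at 96.9 to 191 CPM elsewhere (-0.93, and -0.27 without that library, SE 0.19). Rpl38, not counted at day 21, was at 799 CPM in CTR replicate 5 and at 142 to 253 CPM elsewhere (-0.93, and -0.24 without it). Among the members with the highest mean, Rplp0 was at 7356 CPM in that library and 1254 to 1748 CPM elsewhere, Rpsa at 4424 and 813 to 1097 CPM, and Rpl41, the smallest ribosomal protein, at 3561 and 1045 to 1709 CPM. For each of these the other CTR libraries and the GLLP libraries overlapped.

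In 5 members CTR replicate 5 was within the range of the others: Rpl10, Rpl5, Rps25, Rps6 and Rpl7a. Rpl10 was at 1629 CPM there, with 1802, 1280, 1546 and 1177 CPM in CTR replicates 1 to 4 and 1630, 1694, 1525 and 1126 CPM in GLLP. Its diet difference was 0.01 (SE 0.23) with all libraries. Rpl5 was at 1364 CPM in CTR replicate 5 and 1059 to 1576 CPM in the others, and Rps25 at 201 and 157 to 207 CPM. The diet groups of these genes overlapped with and without CTR replicate 5, as did those of all 71 tested members.

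**Figure D5:**
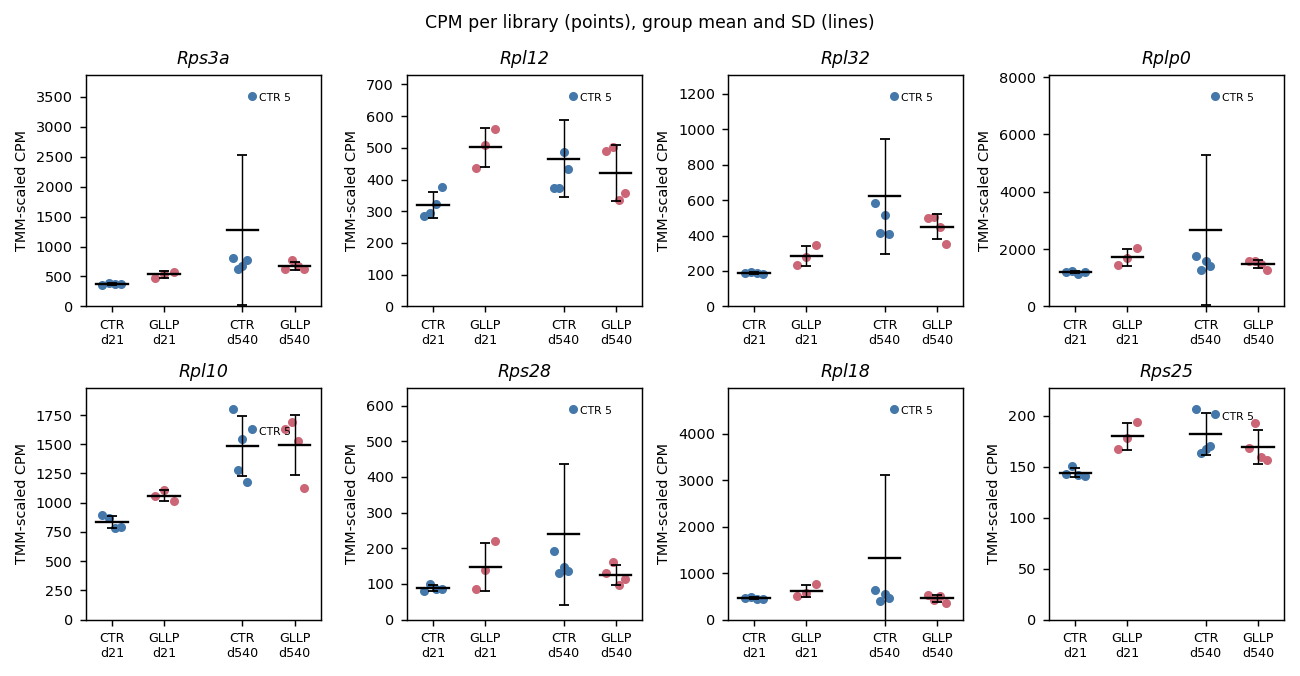
CPM of 8 members in every library, with the group mean and SD. Rps3a and Rpl12, the members called at day 21, have separate day 21 groups; at day 540 CTR replicate 5 is far above the rest for Rps3a, Rpl32, Rplp0, Rps28 and Rpl18 and within their range for Rpl10 and Rps25.

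Other lists moved in the same library. The mitochondrial ribosomal protein genes had a median log2 difference of 1.34 in CTR replicate 5 from the other CTR libraries, close to the 1.46 of the cytosolic genes, ribosome assembly genes 0.48 and elongation and initiation genes 0.29. Growth control genes had -1.02: Rps6kb1 was at 3.92 CPM there against 35.1 to 58.1 CPM in the others, and Larp1, picked out for its role, at 60.3 against 172 to 262 CPM. Across 57 members with a mean of at least 5 CPM at both days, the excess in CTR replicate 5 had a Spearman correlation of 0.51 with the day 21 difference of GLLP replicate 4 from GLLP replicate 2, of 0.31 with that of replicate 3 from replicate 2, and of -0.13 with gene length in GRCr8. These are descriptions across genes of single libraries, which share the normalization of their library and are not independent replicates. Cell type markers moved in that library too. Basal epithelial markers summed to 1260 CPM there and to 181 to 428 CPM in the other day 540 libraries, with a median log2 difference of 1.22 from CTR replicates 1 to 4. Skeletal muscle markers had a median of 0.90 and summed to 119 CPM, against 45.8 to 112 CPM in the other day 540 libraries. Secretory markers had a median of -1.55, where CTR replicate 4 had -1.07. The secretory sum of 62719 CPM lay within the range of the others, 17580 to 93983 CPM. The part of these cell types in the ribosomal protein values of this library was not tested.

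At day 540 the diet medians of the related lists also moved toward 0 when CTR replicate 5 was left out. The mitochondrial ribosomal protein genes had -0.46 with it and -0.07 without, and ribosome assembly genes -0.20 and -0.07. Elongation and initiation genes had -0.03 and 0.00046, and growth control genes 0.21 and 0.04. In all of these lists 0 genes were called at day 540.

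Whether the diet difference itself changed with day was tested as an interaction over the gene names of both tables. For the 59 members tested at both days, all interaction values were negative, meaning less GLLP excess at day 540, where 52% of all genes were negative, and their median was -1.04 against -0.03 over all genes. None was called by edgeR (smallest adjusted p = 0.738), where 0.0917% of all genes were called lower, and 48 had an unadjusted p under 0.05 in that direction, as 3.82% of all genes did. Without CTR replicate 5 the median was -0.61, 50 members had an unadjusted p under 0.05 (3.72% of all genes) and 0 were called (0.106% of all genes were), with a smallest edgeR adjusted p of 0.375. The diet differences at the 2 days are thus not shown to differ for any member after adjustment.

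Rpl3, Rps23 and Rps18 were among the members with the smallest interaction p-values. Rpl3 had log2 fold changes of 0.54 at day 21 and -0.29 at day 540 (-0.09 without CTR replicate 5), an interaction of -0.81 (SE 0.28). Rps23 had an interaction of -0.79 (SE 0.27). For Rps18, whose day 21 value rests on the few reads under that symbol, the interaction was -1.12 (SE 0.39). In each of these genes the GLLP libraries lay above CTR at day 21 and overlapped with CTR at day 540.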

How the data were processed

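The values are raw counts of reads for each gene as deposited by the authors, 1 table for each day (28688 and 24218 entries), whole numbers and not normalized. The submitters' processing notes name STAR, edgeR 3.34.0 and Rnor_6.0. How reads were counted, with which gene annotation and whether by strand, is not given in the sources used here. At day 21, 4 entries that share a name with another were kept apart.

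From these counts, each day was fitted over its whole table with edgeR 4.0.16 (R 4.3.3): filterByExpr, TMM, robust quasi-likelihood fit and test, Benjamini-Hochberg adjustment, threshold 0.05. The interaction used names of both tables. The lowest CPM of a tested member in any library was 0.708 at day 21 and 0.114 at day 540. Library totals ran from 28748604 to 39161666, so a count of 0 allows up to 0.104 CPM. The biological coefficient of variation was 19.6% at day 21, 46.2% at day 540 and 37.1% in the interaction. Fits were tested on simulated data. Replicate libraries differed beyond sampling noise (chi-square per degree of freedom of at least 32.2).

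The members and lists were chosen with earlier results of these data known. Members named are, per day, the 6 with the smallest p, the 5 with the highest mean CPM, the 3 least along the members' direction, those called and those near 0; 4 for the interaction; for lists, 3 per day by p, of which some are not printed. Some members that these rules name are not reported here. Lymphocyte, stroma and adipocyte markers were read as well, with 0 of 8, 0 of 11 and 0 of 8 called at day 21. Alternatives were RLE, library size, DESeq2 1.42.0, no filter, a 1 CPM filter, non-robust dispersion, a joint fit, a replicate block, and leaving out each library. RefSeq (GRCr8) gave promoter windows, gene lengths and pseudogene names. Figures used matplotlib 3.10.9.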

Additional observations from a re-analysis of the deposited data

Results flagged for a closer look

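The values of 43 groups of named members and member shares were checked for a sample far from the rest of its group. Of these 43, 11 had one. The rule flags about 1 in 20 independent groups by chance, a rate that does not apply here. The named members were chosen from these same data, partly by p and level, and they share their libraries. All 11 were CTR replicate 5 at day 540. The first is the share of counts on the members, 8.19%. The others are single genes in CPM: Rpl18 at 4532, Rpl38 at 799, Rpl41 at 3561, Rplp0 at 7356, Rps16 at 3591, Rps24 at 1917, Rps27 at 1923, Rps28 at 591, Rps9 at 11.9 and Rpsa at 4424. Over all members at 1 CPM or more, 52 of 70 had such a value in the CTR group at day 540, each time CTR replicate 5. The counts were 4 of 70 in the GLLP group at day 540 and 1 of 58 in the CTR group at day 21. This check was not run over all genes. By a different and weaker measure, CTR replicate 5 lay above every other day 540 library for 34.3% of all tested genes and below for 36.4%. It lay above for 66 of the 71 tested members. Extreme values in this library were thus not particular to the members, but how often the check would flag other genes is not known. Groups of 3 were not checked.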

How the results depend on the processing

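At day 21 the members' median stayed positive in every alternative run, from 0.37 without GLLP replicate 4 to 0.63 with library size scaling, and the number of members called moved. It was 2 as reported, 46 with library size scaling, 45 with DESeq2, 7 without a filter, 1 with RLE factors and with a filter at 1 CPM, and 0 with non-robust dispersion, in the joint fit and with a replicate block; leaving out single libraries gave 0 to 52. The cause was not tested. Across the fits with other settings, Rps3a kept its call in all but non-robust dispersion, the joint fit and the block, where its edgeR adjusted p was 0.0515, 1 and 0.388, and Rpl12 lost it in those and with RLE factors or the 1 CPM filter (0.0557 to 0.95). At day 540 and for the interaction 0 members were called in every alternative run. The replicate block took the day 540 median from -0.53 to -0.094 and that of the interaction from -1.04 to -0.57. CTR replicate 5 has no GLLP sample of its number, so with the block it adds nothing to the diet difference. The same holds for CTR replicate 1 at day 21. Leaving out CTR replicate 5 without a block gave medians of -0.097 and -0.58 over the tested members. Numbers are not stated to pair samples, and same-numbered samples did not deviate together (correlations from -0.196 to 0.329). Of 7 numbered samples, 2 correlated best with their own number. Single genes were followed through these runs only where named by p, by level, as called or as least along the members' direction. Among these, signs turned only for genes near 0 change: Rpl7a at day 21 was -0.0221 without GLLP replicate 4. At day 540 Rps9 was 0.0986 with library size scaling, 0.00146 without a filter, 0.396 with the block, and -0.214 to 0.398 over the fits with a library left out. Rpl7a was -0.0827 with the block and -0.285 to 0.349 in such fits, and Rpl10 was -0.0541 to 0.141. Among members not followed in this way, larger values also turned at day 540 when CTR replicate 5 was left out. Rplp2 went from -1.41 to 0.39 and Rpl8 from -0.69 to 0.19. Of the 71 tested members, 2 had positive values with that library and 6 without it. The 13 members not tested at day 21 had too few counts there for a difference to be detectable.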

Other observations

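The 5 ribosomal protein genes named in the day 540 table alone had these ranges over its 9 libraries: Rpl22 from 107 to 325 CPM, Rplp1 from 429 to 1211 CPM, Rps13 from 217 to 692 CPM, Rps26 from 255 to 704 CPM and Rps7 from 493 to 1113 CPM. Fau, which encodes a small subunit protein fused to a ubiquitin-like protein, was counted in 1 of 7 day 21 libraries (0.0289 CPM) and lay at 309 to 499 CPM in the day 540 libraries other than CTR replicate 5, which had 2728 CPM. It thus had the same split between the tables as Rpl38 or Rps29.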
